A study of Mus musculus with 12 samples.

Results

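The genes examined were 37 markers and regulators of astrocytes, the star-shaped glial cells that take up glutamate, buffer potassium and line blood vessels with their endfeet. They were chosen by name and matched by Ensembl gene identifier, and they made up 37 of the 54532 genes counted in each sample. By role they comprised 5 regulators, 2 genes of the filament and of calcium binding, 4 endfoot genes, 2 gap junction genes, 6 genes of glutamate and amino acid handling, 4 of ion and metal transport, 6 of metabolism and lipid binding, 5 secreted proteins and 3 cell surface receptors.

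RNA sequencing was done on 12 samples of brainstem progenitors of C57BL/6 mice carrying Nestin TVA and floxed p53, isolated between postnatal days 3 and 5 and grown as neurospheres without serum in EGF and FGF2. There were 3 samples in each of 4 groups, infected with RCAS viruses. The receptor was either *ACVR1* WT or *ACVR1* R206H, and each was given alone or together with H3.1K27M. The floxed p53 allele and the Nestin TVA transgene were shared by all groups, and no Cre virus is listed for these samples. The Tv-a receptor, through which RCAS viruses infect, was here made from the nestin promoter, so the vectors could reach nestin-expressing cells and not every cell of a neurosphere. No sample without a vector was part of the comparison, so *ACVR1* WT was the reference. The labels do not say whether replicates came from separate litters, so the p values measure the spread between these samples, which may be in part technical.

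ACVR1 is a type I receptor for bone morphogenetic proteins (BMPs). On ligand binding, such receptors phosphorylate SMAD proteins, which enter the nucleus and switch on targets such as the *Id* genes, and BMP signalling is known to turn neural progenitors towards the astrocyte fate together with the JAK/STAT3 pathway. R206H is a substitution in the regulatory part of the receptor that raises its signalling, and H3.1K27M is a histone mutation known to lower the repressive trimethylation of histone H3 at lysine 27. The comparisons asked how the receptor mutant changed the astrocyte genes in the presence and absence of the histone mutant, and how the histone mutant changed them with either receptor.

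The total count ran from 19315020 to 26456257 per sample, and the 37 genes together took between 1.94% and 4.23% of it. Levels are given as CPM, counts scaled to a common library size by TMM over the 12 samples. *Acvr1* itself, on which reads of the vectors can be counted only where they match the mouse sequence, was at 46.1 to 53.1 CPM with *ACVR1* WT, 82.3 to 114 CPM with *ACVR1* R206H, 163 to 368 CPM with *ACVR1* WT and H3.1K27M, and 548 to 1056 CPM with both mutants. Its groups did not overlap, so that the amount of receptor RNA moved with every comparison below, and its part in them was not tested. In the cultures as a whole, 10 progenitor markers summed to between 2667 and 3929 CPM, 14 genes of the oligodendrocyte lineage to between 3328 and 4635 CPM and 14 neuron markers to between 677 and 1761 CPM, of which *Map2* alone was 567 to 1560.2 CPM. Against these, 8 endothelial markers summed to at most 15.9 CPM and 10 microglia markers to at most 39.1 CPM, and the defining endothelial marker *Cldn5* was at 0 in all but 1 of the groups. Progenitor and oligodendrocyte lineage markers were thus present beside the astrocyte genes. The 37 astrocyte genes, at 1.94% or more of the counts, were higher in sum than either list in every sample. Of the progenitor sum *Vim* alone was 1421 to 2758 CPM, and of the oligodendrocyte lineage sum *Olig1* was 1144 to 2748 CPM. In such bulk samples fewer cells of a type cannot be told apart from less RNA per cell.

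The promoters of 4 of the genes are shown because these genes took opposite directions below. *Gfap* and *Aldoc* were lower with H3.1K27M and higher with the receptor mutant on top of it, while *Acsbg1* and *Slc39a12* had the opposite signs, not past the threshold for *Slc39a12* between the 2 *ACVR1* WT groups. Each window holds 300 bases across a RefSeq transcription start (GRCm38.p6), written 5′ to 3′ on the strand of the gene. Capitals mark matches, on either strand, to a STAT element (TTCNNNGAA), the short element of nuclear factor I (TTGGC), a GC-rich SMAD element (GGCGCC) or a SOX element (AACAATG). In these 4 windows no 2 matches overlapped.
*Gfap* promoter, chr11:102897151-102897450, minus strand: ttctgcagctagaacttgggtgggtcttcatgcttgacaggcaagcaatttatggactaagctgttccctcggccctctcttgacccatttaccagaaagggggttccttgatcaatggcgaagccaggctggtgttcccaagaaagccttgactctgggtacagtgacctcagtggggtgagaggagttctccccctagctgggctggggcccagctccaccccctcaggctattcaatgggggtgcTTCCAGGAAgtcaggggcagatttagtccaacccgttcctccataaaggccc
*Aldoc* promoter, chr11:78322823-78323122, plus strand: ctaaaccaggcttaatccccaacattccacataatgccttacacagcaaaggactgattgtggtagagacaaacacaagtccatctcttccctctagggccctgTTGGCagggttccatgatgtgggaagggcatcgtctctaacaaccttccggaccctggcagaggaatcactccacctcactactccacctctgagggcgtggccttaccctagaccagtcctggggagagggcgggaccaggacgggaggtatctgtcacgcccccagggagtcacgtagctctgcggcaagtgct
*Acsbg1* promoter, chr9:54661836-54662135, minus strand: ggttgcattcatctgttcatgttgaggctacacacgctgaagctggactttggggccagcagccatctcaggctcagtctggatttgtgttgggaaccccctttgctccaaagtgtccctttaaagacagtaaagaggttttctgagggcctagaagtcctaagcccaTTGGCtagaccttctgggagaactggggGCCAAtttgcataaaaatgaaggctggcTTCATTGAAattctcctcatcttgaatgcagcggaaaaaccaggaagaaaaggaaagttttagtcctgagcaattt
*Slc39a12* promoter, chr2:14388148-14388447, plus strand: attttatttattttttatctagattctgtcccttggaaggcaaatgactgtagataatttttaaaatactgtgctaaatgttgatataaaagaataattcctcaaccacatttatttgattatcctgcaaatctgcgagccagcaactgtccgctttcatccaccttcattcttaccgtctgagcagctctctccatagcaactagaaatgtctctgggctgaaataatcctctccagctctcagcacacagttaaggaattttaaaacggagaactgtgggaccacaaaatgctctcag

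The *Gfap* window held 1 match to the STAT element and the *Aldoc* window 1 match to the nuclear factor I element. The *Acsbg1* window held 1 STAT match and 2 nuclear factor I matches, and the *Slc39a12* window none of the 4 motifs. Over the 31 of 37 genes with a window in the table, the STAT element was found in 5 (16.1%) against 8.42% of 27025 promoters, the nuclear factor I element in 17 (54.8%) against 47.1%, the SMAD element in 4 (12.9%) against 12% and the SOX element in 0 against 3.86%. A match describes letters in this window only.

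Per kilobase of exon, the astrocyte genes spanned more than 3 orders of magnitude. *Apoe*, the lipid carrier, and *Fabp7*, a fatty acid binding protein also made by radial glia, were the highest in all 4 groups, with 2686 and 1793 CPM per kb in *ACVR1* WT and 1624 and 1819 CPM per kb with both mutants. *Slc7a10*, *Dio2* and *Gjb6* were the lowest, at 0.367, 0.395 and 0.939 CPM per kb in *ACVR1* WT. *Aqp4* was at 541 CPM per kb in *ACVR1* WT and 119.9 CPM per kb in *ACVR1* WT with H3.1K27M, and *Gfap* at 349 and 64.8 CPM per kb. Reads were counted without strand and those shared by 2 genes were dropped, and exons of *Fgfr3* overlap those of *G630022F23Rik* over 998 bases, *Aldh1l1* those of *Gm15756* over 499 bases, *Slc7a10* those of *Lrp3* over 377 bases and *Ttyh1* those of *D030047H15Rik* over 244 bases. The levels of these 4 are uncertain to that extent.

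**Figure D1:**
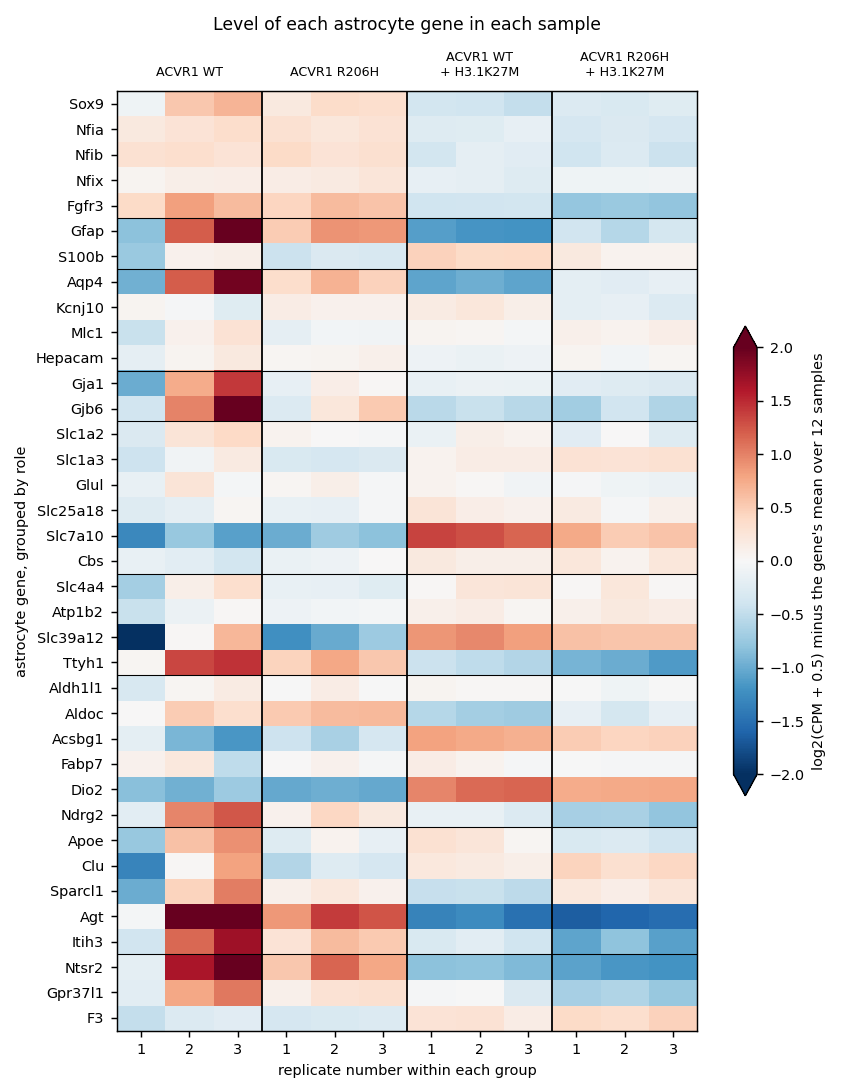
Heat map of the 37 astrocyte genes (rows, grouped by role) in the 12 samples (columns). Colour is log2(CPM + 0.5) minus the mean of the gene over the 12 samples, and deep colours at the ends of the scale stand for values of 2 or more. *ACVR1* WT 1 and *ACVR1* WT 3 differ most among replicates, and the H3.1K27M groups are blue for *Agt*, *Gfap* and *Ntsr2* and red for *Dio2* and *Slc7a10*.

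The 3 *ACVR1* WT samples differed widely among themselves. Of the 37 genes, 31 were lowest in *ACVR1* WT 1 and 28 were highest in *ACVR1* WT 3, against 43.6% and 35.4% of the 15066 genes tested without H3.1K27M. In 27 of them both held (28.6% of all genes). The level in *ACVR1* WT 3 was at least 2-fold that in *ACVR1* WT 1 for 15 genes (8.92% of all genes), and the reverse held for 0 (7.16%). The 3 *ACVR1* R206H samples lay inside the range of the *ACVR1* WT samples for 30 of 37 genes, against 49.8% of all genes. These shares describe 3 samples and carry no test. The median coefficient of variation of the 37 genes was 25.9% among the *ACVR1* WT samples, 5.40% among *ACVR1* R206H, 3.95% with *ACVR1* WT and H3.1K27M, and 4.31% with both mutants.

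*Gfap*, which encodes the intermediate filament of astrocytes, was at 343, 1412 and 2655 CPM in *ACVR1* WT 1 to 3, a 7.73-fold range from the first to the third. In the *ACVR1* R206H samples it was at 862, 1138 and 1106 CPM, all between *ACVR1* WT 1 and *ACVR1* WT 2. *Aqp4*, the water channel of the endfeet, was at 782, 3533 and 5800.3 CPM in *ACVR1* WT and 1945, 2471 and 2094 CPM in *ACVR1* R206H. The order of the samples was the same as for *Gfap*, with *ACVR1* WT 1 alone below the *ACVR1* R206H samples. *Gja1*, a connexin of astrocyte gap junctions, was at 299, 999 and 1579 CPM in *ACVR1* WT and 528, 655 and 607 CPM in *ACVR1* R206H. Its partner *Gjb6* was close to undetected, at 0.471, 2.01 and 5.05 CPM in *ACVR1* WT and 0.553, 0.988 and 1.31 CPM in *ACVR1* R206H.

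The same order of the *ACVR1* WT samples held for the 5 secreted proteins. *Agt*, which encodes angiotensinogen, was at 112, 576 and 939.7 CPM in *ACVR1* WT and 212, 307 and 278 CPM in *ACVR1* R206H. *Clu*, the chaperone clusterin, was at 203, 514 and 879.8 CPM and 336, 421 and 399 CPM. *Sparcl1*, a matrix-associated protein that promotes synapse formation, was at 903, 2447 and 3665 CPM and 1936, 2080.0 and 1904 CPM. In all 3, the *ACVR1* R206H values lay between those of *ACVR1* WT 1 and *ACVR1* WT 2. *Apoe* was at 2569, 6502 and 8154 CPM in *ACVR1* WT and 3623, 4557 and 3877 CPM in *ACVR1* R206H, and *Itih3*, a heavy chain of the inter-alpha-trypsin inhibitor, at 9.22, 27.3 and 40.4 CPM and 14.8, 19.0 and 17.7 CPM. Both were again lowest in *ACVR1* WT 1 and highest in *ACVR1* WT 3.

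Among the receptors, *Ntsr2*, a neurotensin receptor, was at 49.5, 176 and 234 CPM in *ACVR1* WT and 82.4, 127 and 97.3 CPM in *ACVR1* R206H, and the orphan receptor *Gpr37l1* at 152, 302 and 367 CPM and 189.9, 215 and 220.3 CPM. *F3*, which encodes tissue factor, was at 49.0, 56.7 and 58.2 CPM and 54.1, 55.1 and 56.7 CPM. The first 2 spanned a wide range in *ACVR1* WT while *F3* did not.

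Of the transport genes, the zinc transporter *Slc39a12* was at 6.54, 30.0 and 46.6 CPM in *ACVR1* WT, a 7.13-fold range, and 12.3, 14.3 and 17.6 CPM in *ACVR1* R206H. *Ttyh1*, a membrane protein of the tweety family, was at 645, 1582 and 1709 CPM and 848, 1072 and 905 CPM. For both, the *ACVR1* R206H values lay between *ACVR1* WT 1 and *ACVR1* WT 2. The bicarbonate cotransporter *Slc4a4* was at 507, 882 and 1026 CPM in *ACVR1* WT and 738, 725 and 689 CPM in *ACVR1* R206H, and *Atp1b2*, a subunit of the sodium pump, at 1247, 1572 and 1738 CPM and 1589, 1649 and 1665 CPM. These 2 were lower in *ACVR1* WT 1 than in any other sample of the 4 groups.

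The metabolic genes did not share 1 order. *Ndrg2* was at 798, 1820.3 and 2174 CPM in *ACVR1* WT and 982, 1229 and 1052 CPM in *ACVR1* R206H, and *Aldoc*, the aldolase of astrocytes, at 1306, 1854 and 1629.9 CPM and 1859, 2007 and 2025 CPM. *Acsbg1*, an acyl-CoA synthetase, ran the other way, at 536, 327 and 275 CPM in *ACVR1* WT and 461, 391 and 488 CPM in *ACVR1* R206H. *Dio2*, the deiodinase that activates thyroid hormone, was low at 2.31, 2.06 and 2.52 CPM and 1.96, 2.03 and 1.94 CPM. *Fabp7* ranged from 1620.0 to 2666 CPM in *ACVR1* WT and *Aldh1l1*, a folate enzyme often used to mark astrocytes, from 507 to 714 CPM.

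*Sox9*, a transcription factor needed for gliogenesis, was at 180.2, 279 and 305 CPM in *ACVR1* WT and 217, 247 and 240.1 CPM in *ACVR1* R206H. The nuclear factor I genes, which act with *Sox9* at the onset of gliogenesis, were at 264, 279 and 296 CPM (*Nfia*), 365, 376 and 359.5 CPM (*Nfib*) and 430.1, 448 and 457 CPM (*Nfix*) in *ACVR1* WT. In *ACVR1* R206H they were at 285, 270.4 and 283 CPM, 388, 359.6 and 372 CPM and 458, 470.3 and 490.3 CPM in that order, so that only *Nfix* had groups that did not overlap. The fibroblast growth factor receptor gene *Fgfr3* was at 207, 277 and 245 CPM in *ACVR1* WT and 213, 244 and 234 CPM in *ACVR1* R206H. Of the genes of glutamate and amino acid handling, the transporter *Slc1a3* was at 1197, 1511 and 1808 CPM and 1286, 1259 and 1303 CPM. *Slc25a18*, a mitochondrial glutamate carrier, was at 298, 314 and 366 CPM and 322, 316 and 349.5 CPM, and *Cbs*, which makes cystathionine, at 91.8, 88.3 and 78.6 CPM and 93.0, 95.1 and 103 CPM. *Slc7a10*, a transporter of small neutral amino acids, was at 0.565, 1.03 and 0.728 CPM and 0.805, 1.09 and 0.972 CPM. The endfoot genes *Kcnj10*, *Mlc1* and *Hepacam* and the calcium binding gene *S100b* are given with the H3.1K27M samples below.

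**Figure D2:**
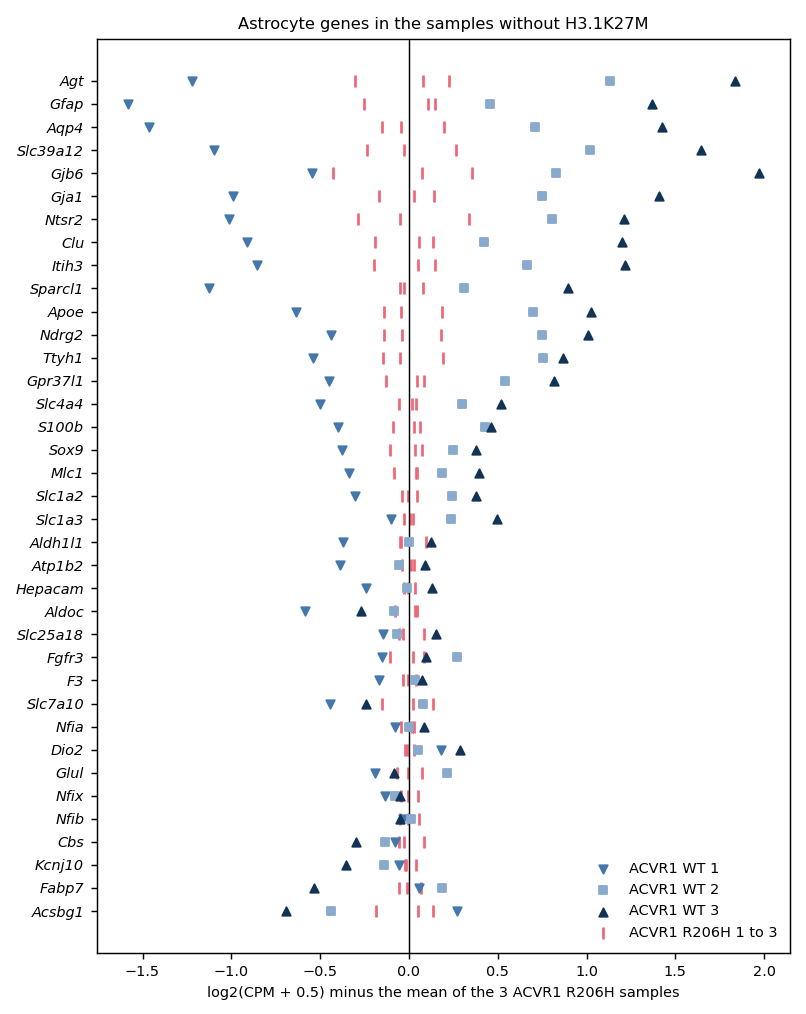
Level of each of the 37 genes in the 6 samples without H3.1K27M, as log2(CPM + 0.5) minus the mean of the 3 *ACVR1* R206H samples (x axis), with genes ordered by the difference between *ACVR1* WT 3 and *ACVR1* WT 1. Triangles and squares are the *ACVR1* WT samples and ticks the *ACVR1* R206H samples, which stay close to 0 while the *ACVR1* WT samples spread to both sides for genes such as *Gjb6*, *Agt* and *Gfap*.

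Markers of some other cell types also differed among the *ACVR1* WT samples. The 10 microglia markers summed to 6.35, 24.6 and 39.1 CPM in *ACVR1* WT 1 to 3 and to between 11.2 and 14.3 CPM in *ACVR1* R206H, and 9 of the 10 were lowest in *ACVR1* WT 1 and highest in *ACVR1* WT 3. Over all genes 28.6% had that order. Of 14 oligodendrocyte lineage genes 8 had it, with *Gpr17*, a receptor of committed precursors, at 36.2, 718 and 1264 CPM and *Sox10* at 16.7, 63.0 and 69.6 CPM. The reverse held for 3, with *Olig1* at 2118, 1572 and 1144 CPM and *Olig2* at 800, 605 and 467 CPM. Of 13 neuron markers with a count 4 had that order and 1 the reverse, and of 10 progenitor markers 4 had it and 3, *Nes* among them, the reverse. The part of these in the levels of the astrocyte genes was not tested.

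In the absence of H3.1K27M, 0 of 37 astrocyte genes differed between *ACVR1* R206H and *ACVR1* WT at an adjusted p under 0.05 in edgeR's quasi-likelihood test, with 0% of 15066 genes called. At an unadjusted p under 0.05 there were 0 of the 37 and 534 of all genes, and DESeq2 called 0 of the 37 and 26 of all genes. The log2 fold changes ran from -1.40 to 0.30 with adjusted p values of 0.94 or more, and the median was -0.14 against -0.01 over all genes. The groups did not overlap for 5 of the 37, or 4 higher and 1 lower with *ACVR1* R206H, against 5.34% and 3.87% of all genes. The 4 higher were *Nfix*, *Kcnj10*, *Cbs* and *Aldoc*, with log2 fold changes of 0.08 ± 0.07, 0.17 ± 0.11, 0.16 ± 0.08 and 0.29 ± 0.16 (SE, n = 3 per group, edgeR adjusted p = 0.94 for each), and the 1 lower was *Dio2*.

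This count rested on a single library. Without *ACVR1* WT 1, 20 of the 37 were called, 19 lower and 1 higher with *ACVR1* R206H, and 23.1% of 15087 genes were called as well. Without any other of the 6 libraries the count was 0. The median log2 fold change of the 37 was -0.32 without *ACVR1* WT 1 and 0.004 without *ACVR1* WT 3, with 8 and 20 of them above 0. In the fit without *ACVR1* WT 1, *Gfap* had a log2 fold change of -0.98 ± 0.24 (SE, edgeR adjusted p = 0.023), *Aqp4* of -1.11 ± 0.20 (edgeR adjusted p = 0.0082) and *Agt* of -1.52 ± 0.21 (edgeR adjusted p = 0.0039). *Acsbg1* was the gene called higher, at 0.56 ± 0.11 (edgeR adjusted p = 0.012). The other genes called lower were *Sox9*, *S100b*, *Gja1*, *Gjb6*, *Slc1a2*, *Slc1a3*, *Slc4a4*, *Slc39a12*, *Ttyh1*, *Ndrg2*, *Apoe*, *Clu*, *Sparcl1*, *Itih3*, *Ntsr2* and *Gpr37l1*. None of *Nfia*, *Nfib*, *Nfix* and *Fgfr3* was among them.

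In the presence of H3.1K27M the receptor mutant moved the astrocyte genes in both directions. Of the 36 tested, 24 (66.7%) passed the threshold, 11 higher and 13 lower with *ACVR1* R206H, and *Gjb6* was too low to test. Over all 15672 genes 20.3% were called, 11.4% higher and 8.95% lower. *Aqp4*, *Gfap*, *Sparcl1* and *Aldoc* were among those that rose, and *Slc7a10*, *Itih3*, *Gpr37l1* and *Apoe* among those that fell. The groups did not overlap for 11 higher and 17 lower, against 14.8% and 22.4% of all genes. No change reached 2-fold, since the log2 fold changes ran from -0.70 to 0.86. The median over the genes tested was -0.06 against 0.00 over all genes, and the median absolute log2 fold change was 0.22 against 0.12. DESeq2 called 22, without *Mlc1* and *Dio2*, and 2520 of all genes. When all 12 samples were fitted together, which brings the spread of the *ACVR1* WT samples into the test, only *Kcnj10* and *Slc7a10* passed, both lower, with 440 of all genes called.

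**Figure D3:**
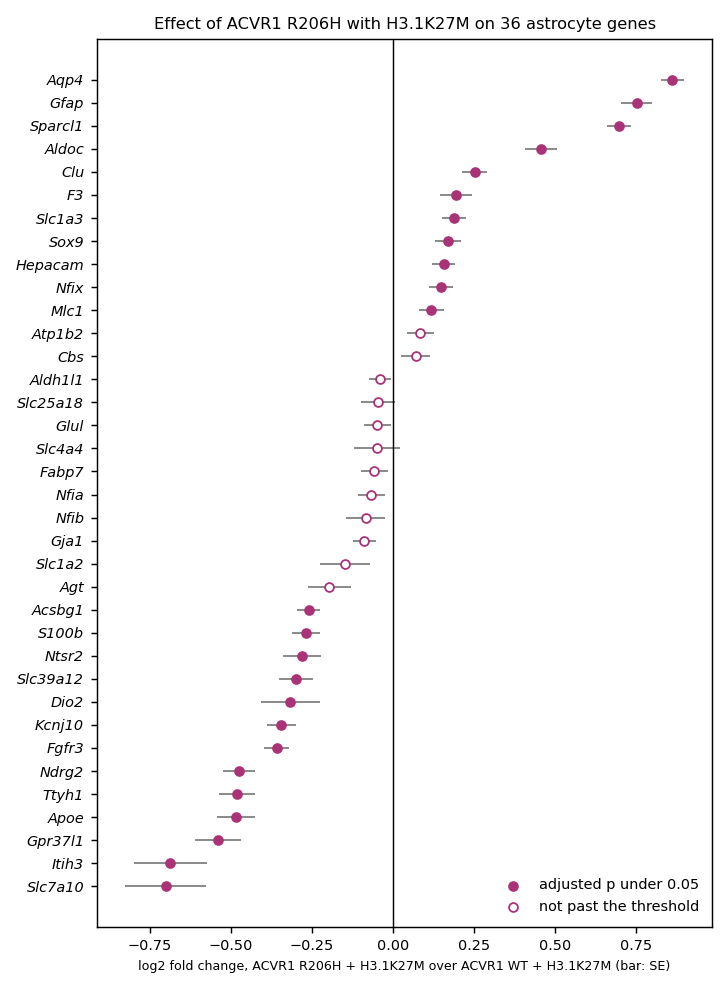
Log2 fold change between *ACVR1* R206H with H3.1K27M and *ACVR1* WT with H3.1K27M (x axis, bars are SE, n = 3 per group) of the 36 genes tested. Filled points passed an adjusted p of 0.05, and they lie on both sides of 0, from -0.70 for *Slc7a10* to 0.86 for *Aqp4*.

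Among the regulators, *Sox9* was at 149, 145 and 138 CPM in *ACVR1* WT with H3.1K27M and 158, 155 and 162 CPM in *ACVR1* R206H with H3.1K27M. The groups did not overlap, and *Sox9* rose by 0.17 ± 0.04 on the log2 scale (SE, edgeR adjusted p = 0.0095). *Nfix* was at 370.2, 365 and 347 CPM and 391, 389.6 and 393 CPM, a log2 fold change of 0.15 ± 0.04 (edgeR adjusted p = 0.015). *Fgfr3* was at 119, 121 and 122 CPM and 91.7, 93.7 and 91.0 CPM and changed by -0.36 ± 0.04 (edgeR adjusted p = 4.4e-05). The direction of *Fgfr3* was thus opposite to that of *Sox9* and *Nfix*, while *Nfia* at 194, 196 and 206.4 against 183, 190.1 and 184 CPM and *Nfib* at 229, 263 and 253 against 224, 244 and 219 CPM did not pass the threshold.

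*Gfap* (chromosome 11, 102887336 to 102900912 of mm10) was at 284, 269.8 and 267 CPM in *ACVR1* WT with H3.1K27M and 466, 412 and 475 CPM with both mutants. All 3 samples with both mutants lay above the others, by a log2 fold change of 0.75 ± 0.05 (SE, edgeR adjusted p = 4.7e-07). *S100b*, the calcium binding protein, went the other way, at 144, 136 and 138 CPM against 120.0, 111 and 109.7 CPM and a log2 fold change of -0.27 ± 0.04 (edgeR adjusted p = 0.00083). Without H3.1K27M it had been at 62.5, 111 and 114 CPM in *ACVR1* WT and 77.7, 86.2 and 84.2 CPM in *ACVR1* R206H.

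The endfoot genes split in the same way. *Aqp4* was at 732, 774 and 735 CPM with *ACVR1* WT and 1330.4, 1304 and 1356 CPM with *ACVR1* R206H. The log2 fold change was 0.86 ± 0.04 (SE, edgeR adjusted p = 1.7e-08), the largest of the 36 tested. *Kcnj10*, the inward rectifier channel that takes up potassium (chromosome 1, 172341210 to 172374085), was at 1039, 1081 and 1003 CPM against 812, 830.3 and 763 CPM and changed by -0.35 ± 0.04 (edgeR adjusted p = 0.00016). Water channel and potassium channel, which share the endfoot membrane, therefore changed in opposite directions. *Mlc1* and *Hepacam*, membrane proteins that bind each other and are mutated in a leukoencephalopathy, rose by 0.12 ± 0.04 and 0.16 ± 0.04 (edgeR adjusted p = 0.043 and 0.0078). *Mlc1* was at 1070.2, 1060.3 and 994 CPM with *ACVR1* WT and 1105, 1084 and 1131 CPM with *ACVR1* R206H. *Hepacam* was at 442, 435 and 442 CPM and 493, 459 and 488 CPM. These 2 changes were among the smallest called, and each was lost when some library was left out. In the absence of H3.1K27M, *Kcnj10* had been at 963, 906 and 783 CPM in *ACVR1* WT and 1026, 986 and 988 CPM in *ACVR1* R206H, *Mlc1* at 757, 1086 and 1256 CPM and 903, 985 and 982 CPM, and *Hepacam* at 421, 494 and 545 CPM and 487, 495 and 510.4 CPM.

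The gap junction gene *Gja1* did not pass, at 535, 546 and 545 CPM against 509, 499.6 and 487 CPM (log2 fold change -0.09 ± 0.04, SE, edgeR adjusted p = 0.1), and *Gjb6* was at 0.373, 0.430 and 0.360 CPM and 0.285, 0.472 and 0.336 CPM. Of the genes of glutamate and amino acid handling, *Slc1a3* was at 1672, 1769 and 1763 CPM with *ACVR1* WT and 1932, 1912 and 1961 CPM with *ACVR1* R206H, and rose by 0.19 ± 0.04 (edgeR adjusted p = 0.0026). *Slc7a10* was at 6.14, 5.87 and 5.36 CPM and 3.90, 3.22 and 3.36 CPM, the largest fall of the 36 tested at -0.70 ± 0.13 (edgeR adjusted p = 0.0018), although it was counted at no more than 148 reads in any sample. The transporter *Slc1a2*, glutamine synthetase (*Glul*), *Slc25a18* and *Cbs* did not pass, and over all 12 samples *Slc1a2* lay between 617 and 991 CPM and *Glul* between 245 and 325 CPM. The log2 fold changes of these 4 were -0.15, -0.05, -0.05 and 0.07. *Slc25a18* was at 427, 389 and 377 CPM and 401, 349 and 379.9 CPM and *Cbs* at 116, 110.0 and 110.3 CPM and 119, 107 and 119.8 CPM, with overlapping groups. The pair of plasma membrane glutamate transporters thus had 1 member past the threshold.

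Of the transport genes, *Slc39a12* was at 54.7, 58.0 and 52.3 CPM with *ACVR1* WT and 44.6, 43.2 and 43.4 CPM with *ACVR1* R206H (log2 fold change -0.30 ± 0.05, SE, edgeR adjusted p = 0.0014). *Ttyh1* was at 467, 439.6 and 416 CPM and 327, 315 and 285 CPM (log2 fold change -0.48 ± 0.05, edgeR adjusted p = 5.6e-05). Both fell with groups that did not overlap. *Slc4a4* was at 832, 962 and 972 CPM and 827, 958 and 828 CPM, and *Atp1b2* at 1831, 1886 and 1745 CPM and 1831, 1952 and 1883 CPM. These 2 overlapped and did not pass, at -0.05 and 0.08 on the log2 scale.

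Of the metabolic genes, *Aldoc* (chromosome 11, 78322968 to 78327781) was at 874, 810.1 and 794 CPM with *ACVR1* WT and 1162, 1016 and 1153 CPM with *ACVR1* R206H, and rose by 0.46 ± 0.05 on the log2 scale (SE, edgeR adjusted p = 3.4e-05). *Ndrg2*, named for N-myc downstream regulation, was at 829, 832 and 761 CPM and 580.2, 590.3 and 534 CPM (log2 fold change -0.48 ± 0.05, edgeR adjusted p = 3e-05). *Acsbg1* (chromosome 9, 54604877 to 54661870) was at 1074, 1041 and 1013 CPM and 876, 829 and 852 CPM (log2 fold change -0.26 ± 0.04, edgeR adjusted p = 0.00024). *Aldoc* and *Acsbg1* thus went in opposite directions. *Dio2* was at 9.38, 10.4 and 10.6 CPM and 7.84, 7.98 and 8.07 CPM, a log2 fold change of -0.32 ± 0.09 (edgeR adjusted p = 0.027) that did not pass in DESeq2. *Aldh1l1* and *Fabp7* did not pass, with log2 fold changes of -0.04 and -0.06, and the 6 samples ranged over 596 to 658 CPM for *Aldh1l1* and 2259 to 2566 CPM for *Fabp7*.

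Secreted proteins were split as well. *Sparcl1* (chromosome 5, 104079111 to 104113733) was at 1313, 1320.0 and 1259 CPM with *ACVR1* WT and 2078, 1971 and 2129.9 CPM with *ACVR1* R206H (log2 fold change 0.70 ± 0.04, SE, edgeR adjusted p = 8.5e-08). *Clu* was at 586, 574 and 550.2 CPM and 686, 632 and 677 CPM (log2 fold change 0.25 ± 0.04, edgeR adjusted p = 0.00058). *Apoe* (chromosome 7, 19696109 to 19699188) went the other way, at 5327, 5116 and 4449 CPM and 3516, 3586 and 3313 CPM (log2 fold change -0.48 ± 0.06, edgeR adjusted p = 9e-05). The lipid carriers *Apoe* and *Clu* were thus on opposite sides. *Itih3* was at 9.67, 10.4 and 9.04 CPM and 5.56, 6.69 and 5.42 CPM (log2 fold change -0.69 ± 0.11, edgeR adjusted p = 0.00095). *Agt*, at 45.7, 48.1 and 40.8 CPM and 36.5, 38.3 and 39.8 CPM, missed the threshold (log2 fold change -0.20 ± 0.07, edgeR adjusted p = 0.053) although its groups did not overlap.

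All 3 receptors passed. *Gpr37l1* was at 173, 176 and 144 CPM with *ACVR1* WT and 111, 116 and 104 CPM with *ACVR1* R206H (log2 fold change -0.54 ± 0.07, SE, edgeR adjusted p = 0.00018). *Ntsr2* was at 31.8, 32.2 and 30.4 CPM and 26.7, 24.9 and 24.5 CPM (log2 fold change -0.28 ± 0.06, edgeR adjusted p = 0.0041). *F3* was at 82.8, 83.7 and 75.5 CPM and 89.8, 86.3 and 94.6 CPM (log2 fold change 0.19 ± 0.05, edgeR adjusted p = 0.016). The receptors coupled to G proteins fell and tissue factor rose.

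With each of the 6 libraries left out in turn, between 20 and 25 of the 36 were called, with 12.3% to 19.0% of all genes called. Of the 24, the genes *Nfix*, *Mlc1*, *Hepacam*, *F3* and *Dio2* lost their call without at least 1 library, and the other 19 kept theirs in every such fit.

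**Figure D4:**
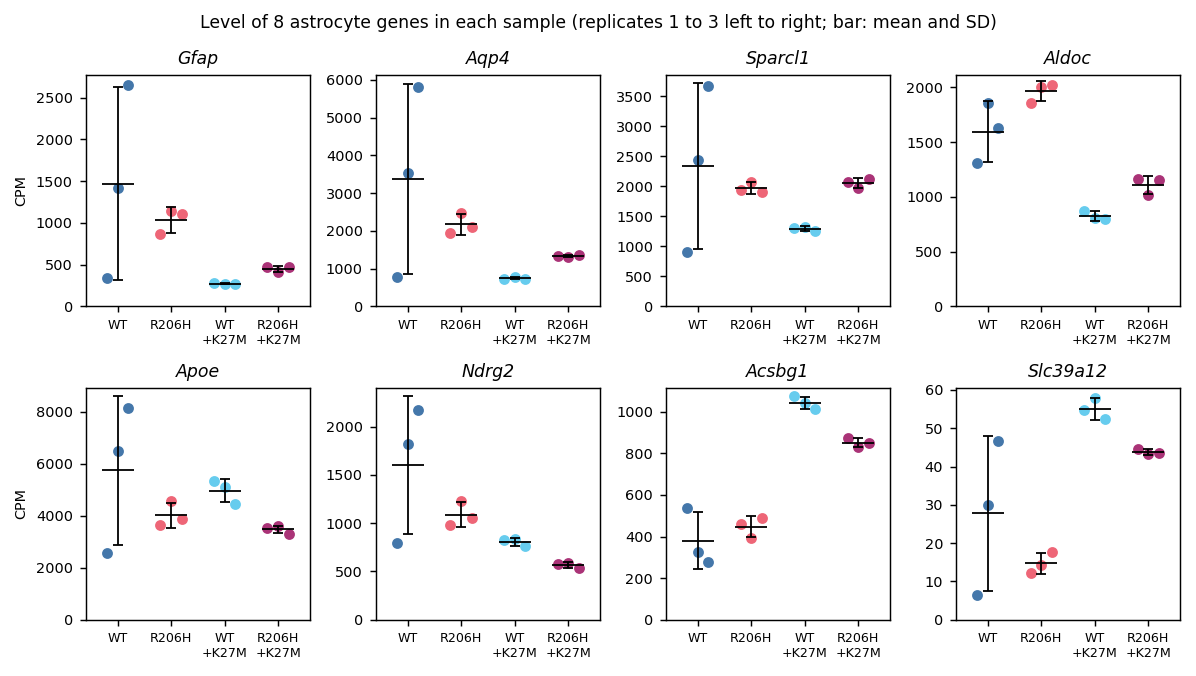
CPM (y axis, from 0) of 8 genes in each of the 3 samples of the 4 groups, with the mean and SD. *Gfap*, *Aqp4*, *Sparcl1* and *Aldoc* were higher, and *Apoe*, *Ndrg2*, *Acsbg1* and *Slc39a12* lower, in all 3 samples with both mutants than in the 3 with *ACVR1* WT and H3.1K27M, while the *ACVR1* WT samples without H3.1K27M spread widely.

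Whether the receptor effect depended on H3.1K27M was tested by the interaction over all 12 samples. It was called for 0 of the 37 genes, with 0.0712% of 15445 genes called. At an unadjusted p under 0.05 there were 4 of the 37 and 1183 of all genes. The 4 were *Aqp4* (1.51 ± 0.68), *Kcnj10* (-0.51 ± 0.12), *Slc1a3* (0.43 ± 0.17) and *Slc7a10* (-0.998 ± 0.28), each given as the log2 fold change with H3.1K27M minus that without (SE, edgeR adjusted p = 0.65, 0.27, 0.62 and 0.42). DESeq2 called 1, *Kcnj10*, and 97 of all genes. Without *ACVR1* WT 1 the interaction was called for 18 of the 37, 16 higher and 2 lower (*Kcnj10* and *Acsbg1*), with 26.6% of 15459 genes called. In that fit *Gfap* had an interaction of 1.74 ± 0.25 (edgeR adjusted p = 0.00036) and *Sparcl1* of 1.34 ± 0.16 (edgeR adjusted p = 0.0001).

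The 2 receptor comparisons use different samples, so they can be set side by side. With *ACVR1* WT 1 left out of the first, *Sox9*, *Gfap*, *Aqp4*, *Slc1a3*, *Clu* and *Sparcl1* were called lower without H3.1K27M and higher with it. *Acsbg1* was called higher and then lower. *S100b*, *Slc39a12*, *Ttyh1*, *Ndrg2*, *Apoe*, *Itih3*, *Ntsr2* and *Gpr37l1* were called lower in both, which is 8 of the 19 genes lower in the first and 8 of the 13 lower in the second, and 0 were called higher in both. Of the 14762 genes tested in both, 246 were called lower in both, of 1588 lower in the first and 1389 in the second, 396 were called higher in both, 226 lower and then higher, and 411 higher and then lower. With all samples the first comparison called 0 genes, so there is no such overlap. It also called 0 genes without *ACVR1* WT 3, where 20 of the 37 log2 fold changes lay above 0, against 8 without *ACVR1* WT 1. The directions in the first comparison thus depended on which *ACVR1* WT library was left out.

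With *ACVR1* R206H, the histone mutant changed 30 of 37 astrocyte genes, 13 higher and 17 lower, and with *ACVR1* WT 15 of 37, 5 higher and 10 lower. The regulators fell as a group, the genes of glutamate and amino acid handling that passed all rose, and *Gfap*, *Agt* and *Ntsr2* fell by more than 1 on the log2 scale in both. Over all genes 56.5% of 15482 were called with *ACVR1* R206H (29.1% higher, 27.4% lower) and 23.0% of 15385 with *ACVR1* WT (12.6% higher, 10.4% lower). The median absolute log2 fold change of the 37 was 0.62 with *ACVR1* R206H, against 0.26 over all genes, and 0.57 with *ACVR1* WT, against 0.27. All 15 genes called with *ACVR1* WT were called in the same direction with *ACVR1* R206H, which is 15 of 15 and 15 of 30, in comparisons that share no sample, and 0 were called in opposite directions. Of the 15146 genes tested in both, 1433 were called lower and 1855 higher in both, of 1555 and 1916 with *ACVR1* WT.

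The 5 regulators were lower with H3.1K27M in both comparisons. *Sox9* changed by -0.84 ± 0.19 with *ACVR1* WT (SE, edgeR adjusted p = 0.025) and -0.54 ± 0.05 with *ACVR1* R206H (edgeR adjusted p = 2.1e-06). *Nfia* changed by -0.50 ± 0.07 and -0.56 ± 0.04, *Nfib* by -0.57 ± 0.08 and -0.67 ± 0.05, and *Nfix* by -0.31 ± 0.07 and -0.24 ± 0.04, in that order. *Fgfr3* changed most, by -1.02 ± 0.11 (edgeR adjusted p = 0.0029) and -1.29 ± 0.05 (edgeR adjusted p = 3.8e-09). In all 5, the 3 samples with H3.1K27M lay below the 3 without, with either receptor, as did 21.1% of all genes with *ACVR1* WT and 33.8% with *ACVR1* R206H.

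*Gfap* fell by 2.44 ± 0.66 on the log2 scale with *ACVR1* WT (SE, edgeR adjusted p = 0.043) and by 1.17 ± 0.09 with *ACVR1* R206H (edgeR adjusted p = 4.9e-07). *S100b* rose by 0.49 ± 0.05 with *ACVR1* R206H (edgeR adjusted p = 7e-06) and had a log2 fold change of 0.53 ± 0.22 with *ACVR1* WT (edgeR adjusted p = 0.13). The filament gene and the calcium binding gene were thus opposite here as well. *Aqp4* had a log2 fold change of -2.18 ± 0.65 with *ACVR1* WT (edgeR adjusted p = 0.056) and -0.68 ± 0.07 with *ACVR1* R206H (edgeR adjusted p = 7.9e-06). *Kcnj10* fell by 0.29 ± 0.05 with *ACVR1* R206H (edgeR adjusted p = 0.00026), while with *ACVR1* WT it was at 0.23 ± 0.11 and did not pass (edgeR adjusted p = 0.2). *Mlc1* rose by 0.24 ± 0.05 with *ACVR1* R206H and *Hepacam* passed in neither. The gap junction genes were called only with *ACVR1* R206H, *Gja1* at -0.23 ± 0.07 and *Gjb6* at -1.34 ± 0.39 (edgeR adjusted p = 0.01 and 0.011), and the difference from *ACVR1* WT was not past the threshold of the interaction.

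Of the genes of glutamate and amino acid handling, *Slc7a10* (chromosome 7, 35186385 to 35201114) rose by 2.89 ± 0.24 with *ACVR1* WT (SE, edgeR adjusted p = 0.0016) and 1.89 ± 0.20 with *ACVR1* R206H (edgeR adjusted p = 7e-06). It was nearly undetected without H3.1K27M, so this is a large ratio of low levels. *Cbs* rose by 0.37 ± 0.08 and 0.28 ± 0.05. *Slc1a3* and *Slc25a18* rose with *ACVR1* R206H, by 0.62 ± 0.04 and 0.22 ± 0.05, and did not pass with *ACVR1* WT, at 0.19 ± 0.17 and 0.28 ± 0.10. *Slc1a2* and *Glul* passed in neither.

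Transport genes that rose with *ACVR1* R206H were *Slc4a4* (0.31 ± 0.06), *Atp1b2* (0.24 ± 0.05) and *Slc39a12* (1.60 ± 0.10), all on the log2 scale with SE. With *ACVR1* WT these were at 0.19, 0.25 and 0.98 and did not pass. *Ttyh1* fell with both receptors, by 1.58 ± 0.35 and 1.58 ± 0.08. Of the metabolic genes, *Acsbg1* rose by 1.45 ± 0.25 and 0.96 ± 0.07 and *Dio2* by 2.13 ± 0.15 and 2.04 ± 0.13. *Aldoc* fell by 0.96 ± 0.15 and 0.79 ± 0.05, and *Ndrg2* fell by 0.91 ± 0.07 with *ACVR1* R206H and was at -0.995 ± 0.35 with *ACVR1* WT, where it did not pass. *Aldh1l1* and *Fabp7* passed in neither.

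Among the secreted proteins, *Agt* (chromosome 8, 124556534 to 124569706) had the largest change of all 37, and fell by 3.61 ± 0.72 with *ACVR1* WT (SE, edgeR adjusted p = 0.018) and by 2.76 ± 0.11 with *ACVR1* R206H (edgeR adjusted p = 3.8e-09). *Itih3* fell by 1.51 ± 0.12 and *Clu* rose by 0.82 ± 0.07 with *ACVR1* R206H, while with *ACVR1* WT they were at -1.41 and 0.09 and did not pass. *Apoe* and *Sparcl1* passed in neither. Of the receptors, *Ntsr2* fell by 2.29 ± 0.52 with *ACVR1* WT and 1.98 ± 0.13 with *ACVR1* R206H, *Gpr37l1* fell by 0.88 ± 0.06 with *ACVR1* R206H, and *F3* rose by 0.55 ± 0.09 and 0.74 ± 0.05.

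**Figure D5:**
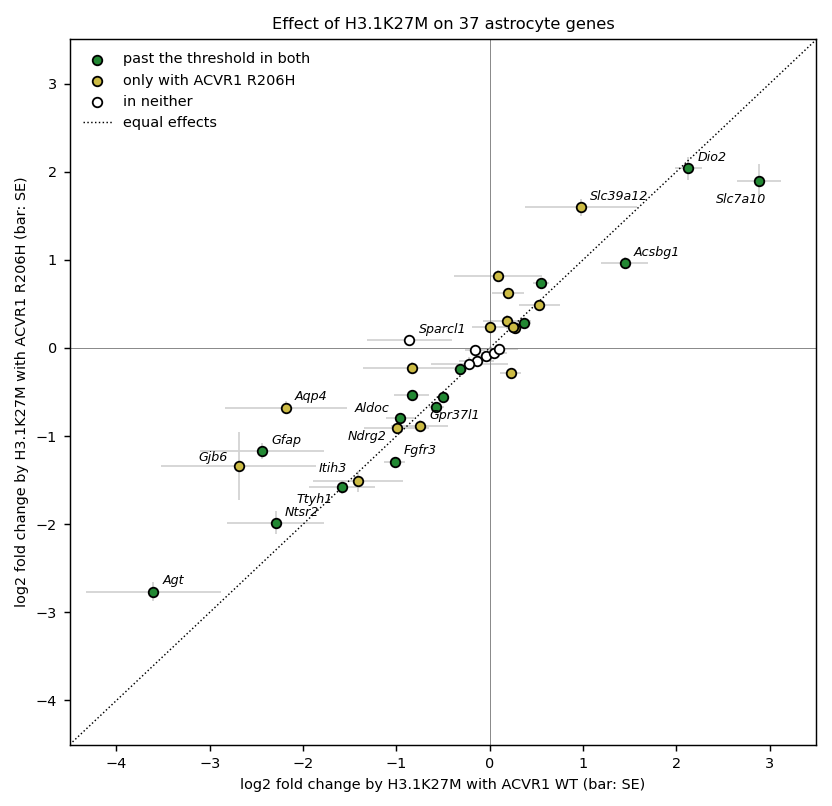
Log2 fold change by H3.1K27M of each of the 37 genes with *ACVR1* WT (x axis) and with *ACVR1* R206H (y axis), bars SE, n = 3 per group. Points on the dotted line have equal values in both, green points passed the threshold in both (15 genes) and yellow points only with *ACVR1* R206H (15 genes), and the horizontal bars are the longer ones for most genes.

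The counts with *ACVR1* WT depended on single libraries. They were 28 without *ACVR1* WT 1 (with 52.6% of 15432 genes called), 7 without *ACVR1* WT 2 (9.36%) and 11 without *ACVR1* WT 3 (17.8%), and 6, 5 and 6 without H3.1K27M replicates 1, 2 and 3 (7.75%, 6.82% and 6.77%). Called in every one of these fits were *Slc7a10*, *Dio2*, *Nfia*, *Nfib* and *Fgfr3*, while *Sox9*, *Nfix*, *Gfap*, *Ttyh1*, *Aldoc*, *Agt*, *Ntsr2*, *Cbs*, *Acsbg1* and *F3* lost their call without at least 1 library. With *ACVR1* R206H the count stayed between 29 and 32 when any library was left out, with 49.5% to 53.7% of all genes called, and only *Gjb6* lost its call. Of the microglia markers, 7 of the 8 tested with *ACVR1* WT were lower with H3.1K27M, and the sum went from 6.35 to 39.1 CPM without H3.1K27M to 1.29 to 1.64 CPM with it for *ACVR1* WT, and from 11.2 to 14.3 CPM to 2.14 to 3.06 CPM for *ACVR1* R206H. Other markers were called too. With *ACVR1* R206H, 7 oligodendrocyte lineage genes were higher and 5 lower of 14, 7 neuron markers higher and 3 lower of 13, 2 progenitor markers higher and 6 lower of 10, and 5 of 5 pericyte and fibroblast markers higher, with 56.5% of all genes called. With *ACVR1* WT these were 1 and 3 of 14, 2 and 2 of 13, 0 and 3 of 10, and 4 higher of 6, with 23.0% of all genes called. The part of any of these in the changes of the astrocyte genes was not tested.

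With H3.1K27M in both groups, the receptor mutant raised 12 of 14 tested BMP target genes and lowered 0, against 11.4% and 8.95% of all genes (median log2 fold change 1.77 against 0.00 over all genes). *Id1* was at 13.8, 12.5 and 14.0 CPM with *ACVR1* WT and 103, 94.1 and 118 CPM with *ACVR1* R206H (log2 fold change 2.99), and *Id2*, *Id3* and *Atoh8* had log2 fold changes of 2.15, 2.99 and 3.38. The BMP targets therefore moved 1 way while the astrocyte genes split. In the absence of H3.1K27M 0 of 14 were called, at a median of 0.37, although *Id1* was at 40.5, 34.4 and 32.5 CPM in *ACVR1* R206H and 12.5, 11.9 and 21.8 CPM in *ACVR1* WT.

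In the same comparison 24 of 40 other astrocyte-enriched genes were called, 11 higher and 13 lower, against 20.3% of all genes (11.4% higher, 8.95% lower), the share to set beside each count in this comparison. *Lcat*, which esterifies cholesterol on lipoproteins, and *Prex2* rose by 2.20 and 1.18 on the log2 scale. *Slc6a11*, a GABA transporter, and *Pla2g7*, a secreted phospholipase, fell by 1.22 and 0.68. This wider list thus also held both directions. Of 27 genes of reactive astrocytes tested, 15 were higher and 1 lower, with *Serpina3n* at 0.66, *Aspg* at 1.58, *Vim* at 0.51 and *Cd44* at 0.59. Of 17 JAK/STAT3 and Notch genes 6 were higher, among them *Jag1* (0.69), *Socs3* (0.57) and *Il6st* (0.34), and 2 lower, among them *Dll1* (-0.59).

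Markers of other cells were also called in this comparison, where 20.3% of all genes were. Of 14 oligodendrocyte lineage genes 10 were lower and 0 higher, against 8.95% and 11.4% of all genes, with *Gpr17* at -1.02, *Mbp* at -0.53, *Sox10* at -0.47 and *Pdgfra* at -0.42, and the summed level was 3949.6 to 4635 CPM with *ACVR1* WT and 3799 to 3863 CPM with *ACVR1* R206H. Of 10 progenitor markers 5 were higher, among them *Pax6* at 0.59 and *Vim* at 0.51, and 2 lower, *Egfr* at -0.73 and *Nes* at -0.26. Of 13 neuron markers 4 were higher and 2 lower, of 7 pericyte and fibroblast markers 3 were higher, of 5 ependymal markers 1 was, of 4 endothelial markers 1 was and the 1 microglia marker tested was, so that the share called was near that of all genes for the ependymal and endothelial markers. Their part in the astrocyte genes was not tested.

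With H3.1K27M against none, other astrocyte-enriched genes were called in 19 of 40 with *ACVR1* WT (11 higher, 8 lower) and 31 of 40 with *ACVR1* R206H (15 higher, 16 lower). Reactive astrocyte genes were called in 10 of 27 (7 higher) and 20 of 26 (15 higher), BMP targets in 2 of 14 (0 higher) and 11 of 14 (10 higher), and JAK/STAT3 and Notch genes in 7 of 17 (3 higher) and 13 of 17 (4 higher). For comparison, 23.0% and 56.5% of all genes were called.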

How the data were processed

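RNA was measured in 12 samples, 3 in each of 4 groups. Per the labels and the methods of the study, the authors deposited raw counts per gene, made from paired-end reads aligned with STAR 2.6.0b-1 to mm10 and counted with HTSeq without strand, at a minimum alignment quality of 10 and with ambiguous and multiply mapped reads left out. Such counting understates genes that share sequence or exons.

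The 37 genes and the other gene lists were chosen with earlier results of these data known, so the lists are descriptions and carry no test of their own. Gene names and positions came from GENCODE M21 (GRCm38) and promoter windows from RefSeq (GRCm38.p6), which held 31 of the 37. Where several starts were listed, the most upstream was used, 1 for each of 27025 genes.

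Genes whose normalized counts averaged 10 or more over the samples fitted were tested with edgeR 4.0.16 in R 4.3.3 (TMM scaling, quasi-likelihood F test), with Benjamini-Hochberg adjustment over all genes tested and a threshold of 0.05. Each pairwise comparison used its own 6 samples and the interaction all 12. Alternatives were DESeq2 1.42.0, its size factors, limma 3.58.1 voom with sample weights, other filters, a replicate block, all 12 samples in 1 fit, a fold threshold and leaving out each replicate. The fits were also run on simulated counts with known folds, and no outcome of these runs is used here. Each simulated gene had the same dispersion in every sample, so they could not show the effect of a deviating library. All 37 genes are named, those past the threshold with H3.1K27M in a comparison with the value in every sample, and up to 4 of each other list, those with the smallest adjusted p for *ACVR1* R206H with H3.1K27M. *Cldn5*, *Map2*, *Olig1* and, in the *ACVR1* WT samples, *Nes* and *Olig2* were singled out after their values were seen.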

Additional observations from a re-analysis of the deposited data

Results flagged for a closer look

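*Kcnj10*, the potassium channel gene, drew attention because the receptor mutant separated all samples in opposite directions in the absence and presence of H3.1K27M. Without H3.1K27M the *ACVR1* R206H samples were at 1026, 986 and 988 CPM, all above *ACVR1* WT at 963, 906 and 783 CPM. With it the *ACVR1* R206H samples were at 812, 830.3 and 763 CPM, all below *ACVR1* WT at 1039, 1081 and 1003 CPM. The difference of the log2 fold changes was -0.51 and did not pass in edgeR's interaction test over 12 samples (adjusted p = 0.27), while for *Kcnj10* DESeq2 gave an adjusted p of 0.003 and edgeR without *ACVR1* WT 1 one of 0.0006. For *Kcnj10*, the adjusted p over all alternatives ran from 0.0002 in voom with sample weights to 0.76 without replicate 3 of *ACVR1* R206H with H3.1K27M. In that voom fit *ACVR1* WT 1 had a weight of 0.07. No other of the 37 genes separated in this way.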

How the results depend on the processing

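No value past a threshold changed its sign under any alternative run, and of the values of single genes 2338 kept their side of the threshold, 139 passed it only under an alternative and 97 lost it. The counts that moved by more than 1.5 times were these, as astrocyte genes and then all genes, beside smaller shifts under other settings. For *ACVR1* R206H against *ACVR1* WT without H3.1K27M, voom with sample weights called 17 and 3683, DESeq2 0 and 26, and the fit of all 12 samples 0 and 11. Voom gave *ACVR1* WT 1 the lowest weight here, at 0.12. It did so too for H3.1K27M with *ACVR1* WT (0.11) and for the interaction (0.07), so its counts there lean little on that library. With H3.1K27M, the fit of all 12 samples called 2 and 440, and a log2 fold change of at least 1 left 0 and 307. For H3.1K27M with *ACVR1* WT, voom called 31 and 9234, all 12 samples 6335 of all genes, the replicate block 9 and 2023, and the fold threshold 8 and 1404. With *ACVR1* R206H the fold threshold left 10 and 1781. For the interaction, DESeq2 called 1 and 97, voom 15 and 4550, no filter 18 of all genes, the replicate block 2 of all genes and the fold threshold 6 of all genes.

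Leaving out 1 replicate gave 0 to 20 and 0 to 3485 without H3.1K27M, 20 to 25 and 1915 to 2966 with it, 5 to 28 and 1037 to 8115 for H3.1K27M with *ACVR1* WT, 29 to 32 and 7589 to 8350 with *ACVR1* R206H, and 0 to 18 and 3 to 4112 for the interaction. The highest counts for *ACVR1* R206H without H3.1K27M, for H3.1K27M with *ACVR1* WT and for the interaction came without *ACVR1* WT 1, and the cause was not tested. For *ACVR1* R206H against *ACVR1* WT without H3.1K27M, same-numbered samples 1 and 2 deviated together (correlations of 0.35 and 0.48) and those numbered 3 did not (-0.16), and in the other comparisons the correlations ran from -0.07 to 0.12. In no comparison was every pair over 0.1, so the samples were taken to share only a number. With the replicate block, 0, 25, 9, 31 and 0 astrocyte genes and 0, 3335, 2023, 8606 and 2 of all genes were called in the 5 comparisons in that order. Counts under about 10 per sample, as for *Gjb6*, limit what could be seen.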
